A study of Mus musculus with 12 samples.

Results

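The genes Kcnj8, Abcc9, Cspg4, Rgs5, Mcam, Ndufa4l2 and Higd1b are widely used to mark pericytes, and they were followed here in fibroblasts sorted from mouse lung. The 7 genes were taken by symbol, with the probe set of highest mean standing for each gene, out of 17097 genes that had a probe set annotated to them alone. Of the 7, 5 had a probe set of their own and 2 of these, Kcnj8 and Ndufa4l2, passed the filter on low signal and were tested among 11073 genes. Both probe sets for Abcc9 were annotated to a second gene as well, and Cspg4 was not analysed here because the annotation used here named no probe set for it.

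Cells carrying a Pdgfra-GFP reporter were isolated by flow sorting from dispase-digested lungs in a bright and a dim gate, 2000 cells per sample. Harvest was 5 days after a sham operation (SHAM), after partial pneumonectomy (PNX), which is followed by compensatory regrowth, or after PNX in mice expressing a dominant-negative FGFR2 (PNX-dnFGFR). All 6 groups, SHAM included, came from operated Pdgfra-GFP mice, and there was no unoperated group. The promoter and cell type driving the dominant-negative receptor, the age of the mice and whether an array held 1 animal or a pool were not given in the sources used here. Each group had 2 arrays labelled as biological replicates, so that p-values measure the spread between these arrays only. Amplified cDNA was hybridised to Affymetrix arrays and all values are log2 signals after robust multi-array averaging (RMA).

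Pericytes are contractile cells that wrap capillaries inside the basement membrane they share with the endothelium, and they depend on PDGF-B from endothelial cells acting on PDGFRB. Kcnj8 and Abcc9 encode the pore (Kir6.1) and the regulatory subunit (SUR2) of the ATP-sensitive potassium channel of vascular mural cells, which hyperpolarises the cell when metabolism falls. Rgs5 is a GTPase activator that dampens G protein signalling, Ndufa4l2 and Higd1b encode small mitochondrial proteins, and Mcam (CD146) and Cspg4 (NG2) are surface molecules. None of these genes is restricted to pericytes in every tissue, and several are also expressed by smooth muscle or fibroblasts.

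The labels of the gates were first set against Pdgfra, the gene that drives the reporter. Pdgfra ranged from 4.84 to 5.54 on the 6 arrays labelled bright and from 6.66 to 7.13 on the 6 labelled dim, a difference of -1.75 ± 0.10 (SE; adjusted p = 9.9e-07, limma). This goes against the order that the gate names give, so bright and dim below mean the samples labelled so. All 11 tested genes of an adventitial fibroblast list were higher in bright and all 11 tested genes of an alveolar fibroblast list were lower, with medians of 3.70 and -2.85 against 0.05 over all tested genes. The array medians lay between 5.06 and 5.13, and arrays of the same group correlated at 0.953 to 0.976 over the tested genes.

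The promoter windows of Kcnj8 and Abcc9 are shown because Kcnj8 and the probe sets that Abcc9 shares with another gene had the largest differences between the gates, and that of Rgs5 because it is a widely used pericyte marker with low signal here. RefSeq windows of 300 bases on GRCm38.p6, from 250 bases before to 50 after an annotated start, were found for 5 of the 7 genes. That start is the 5′ end of the gene's locus for Kcnj8 and Rgs5, while for Abcc9 it lies 492 bases inside the locus. The Kcnj8 window is chr6:142571565-142571864 on the minus strand, the Abcc9 window is chr6:142702225-142702524 on the minus strand, and the Rgs5 window is chr1:169655251-169655550 on the plus strand. Capitals mark TGGGAA (the core bound by RBPJ, the DNA-binding partner of Notch), the E-box CAGCTG and a MEF2 site, all searched on both strands, and no marked sites overlap.

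Kcnj8: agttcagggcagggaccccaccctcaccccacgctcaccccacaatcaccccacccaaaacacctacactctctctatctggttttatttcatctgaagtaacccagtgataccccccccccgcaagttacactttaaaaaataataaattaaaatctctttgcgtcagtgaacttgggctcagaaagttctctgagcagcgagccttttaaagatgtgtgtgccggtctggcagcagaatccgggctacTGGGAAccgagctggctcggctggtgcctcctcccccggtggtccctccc

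Abcc9: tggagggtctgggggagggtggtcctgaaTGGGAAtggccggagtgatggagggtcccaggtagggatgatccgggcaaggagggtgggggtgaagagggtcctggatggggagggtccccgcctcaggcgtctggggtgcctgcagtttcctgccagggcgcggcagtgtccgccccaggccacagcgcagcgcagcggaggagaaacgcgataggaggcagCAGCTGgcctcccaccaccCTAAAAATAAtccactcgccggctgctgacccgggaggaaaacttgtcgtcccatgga

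Rgs5: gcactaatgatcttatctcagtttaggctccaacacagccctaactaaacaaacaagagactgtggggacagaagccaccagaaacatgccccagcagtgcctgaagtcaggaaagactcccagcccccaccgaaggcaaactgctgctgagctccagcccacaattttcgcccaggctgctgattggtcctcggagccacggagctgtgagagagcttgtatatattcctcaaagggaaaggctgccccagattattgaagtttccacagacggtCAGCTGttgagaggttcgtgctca

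TGGGAA stood in the Kcnj8 window at base 251, where the gene starts, and in the Abcc9 window at base 30. It is common, being found in 25.6% of the 32851 windows of this length. CAGCTG stood in the Abcc9 window at base 224 and in the Rgs5 window at base 277, and 16.3% of all windows hold it. The MEF2 site, at base 243 of the Abcc9 window, was found in 3.19% of windows. The hypoxia response core ACGTG was in none of the 5 member windows and in 19.6% of all windows. The same held for the TATA box TATAAA (13.6% of all windows) and for the CArG box (1.63%). A match here describes letters only.

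Kcnj8 was high in bright cells and low in dim cells under every condition. In bright cells its log2 signal was 8.28 and 8.41 after SHAM, 8.13 and 8.48 after PNX, and 7.87 and 7.93 in PNX-dnFGFR. In dim cells it was 3.10 and 3.10 after SHAM, 3.49 and 3.36 after PNX, and 3.52 and 3.41 in PNX-dnFGFR. All 6 bright arrays lay above the filter of 5.10, the median of all values, all 6 dim arrays lay below it, and the gates did not overlap. How many of all genes or probe sets separated the gates in this way was not counted.

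The difference averaged over the conditions was 4.85 ± 0.09 on the log2 scale (SE; 95% interval 4.66 to 5.05; adjusted p = 1.5e-09, limma with Benjamini-Hochberg adjustment). It was 5.24 ± 0.15 after SHAM, 4.88 ± 0.15 after PNX and 4.44 ± 0.15 in PNX-dnFGFR, each past the threshold of an adjusted p of 0.05. No detection calls accompany the values, so the differences were also taken with values below the filter held at it, which gave 3.08 for the mean and 3.24, 3.21 and 2.80 for the conditions. The gates differed across much of the array, where 47.8% of tested genes passed for the mean, 19% after SHAM, 18.4% after PNX and 34.4% in PNX-dnFGFR. Of the 2 tested members, 2 passed for the mean and 1, Kcnj8, in each single condition. In sorted bulk samples, fewer cells of a type and less RNA per cell cannot be told apart.

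**Figure D1:**
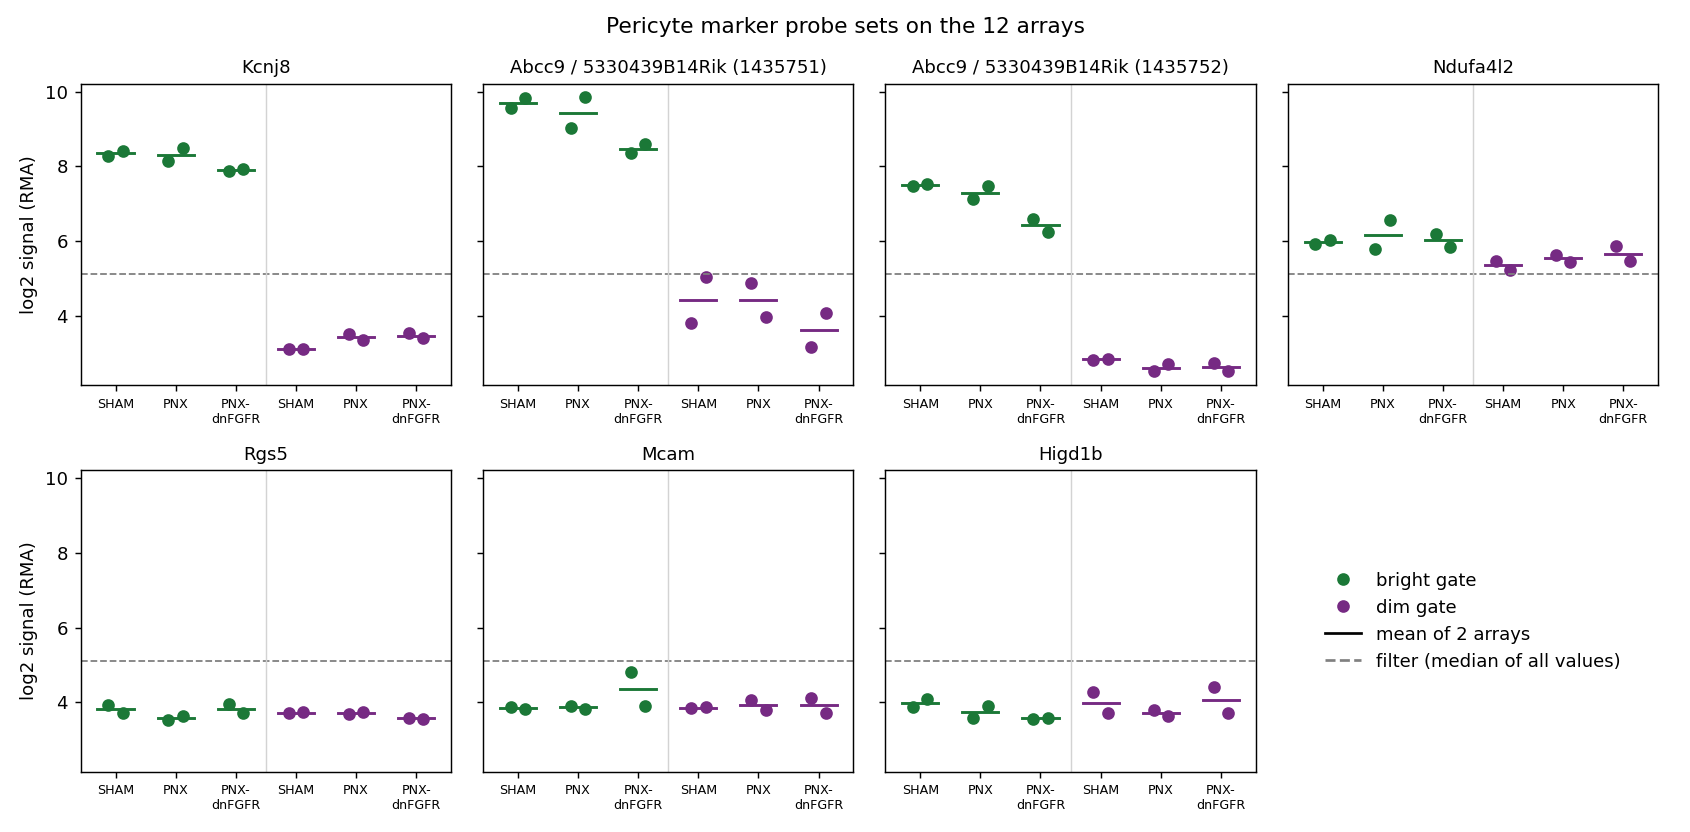
Log2 RMA signal (y axis) of the 7 probe sets that stand for the pericyte markers on each of the 12 arrays, by condition (x axis), with bright samples in green, dim samples in purple, bars at the mean of 2 arrays and a dashed line at the filter of 5.10. Kcnj8 and both probe sets shared by Abcc9 lie above the line in bright and below it in dim, Ndufa4l2 lies above it on all 12 arrays, and Rgs5, Mcam and Higd1b lie below it on all 12.

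Abcc9 lies 16247 bp from Kcnj8 on chromosome 6, and its probe sets could not be given to it alone. Both were annotated to Abcc9 and to 5330439B14Rik, a long non-coding RNA whose locus (142614595 to 142626462) lies inside that of Abcc9 (142587862 to 142702766), and these probes cannot separate the signal of one from that of the other. They were therefore tested as shared probe sets in a fit over 18381 annotated probe sets, chosen after the annotation was seen. The first, 1435751_PM_at, gave 9.56 and 9.82 in bright SHAM, 9.03 and 9.84 in bright PNX, and 8.35 and 8.60 in bright PNX-dnFGFR. In dim cells it gave 3.80 and 5.03 after SHAM, 4.86 and 3.97 after PNX, and 3.14 and 4.07 in PNX-dnFGFR. The bright arrays were all higher than the dim arrays, which were below the filter and varied widely between replicates. As for Kcnj8, the share of all probe sets that separated the gates so was not counted.

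The second shared probe set, 1435752_PM_s_at, gave 7.48 and 7.52 in bright SHAM, 7.12 and 7.47 in bright PNX, and 6.59 and 6.24 in bright PNX-dnFGFR, while the dim arrays lay between 2.51 and 2.84. The mean difference between gates was 5.05 ± 0.27 (SE; adjusted p = 5.6e-07) for the first and 4.38 ± 0.10 (adjusted p = 5.6e-09) for the second. With values held at the filter these became 4.10 and 1.97. The first differed by 5.27 after SHAM, 5.02 after PNX and 4.87 in PNX-dnFGFR, and the second by 4.67, 4.69 and 3.79, all past the threshold. Over probe sets, 47.5% passed for the mean, 18.4% after SHAM, 18.1% after PNX and 33.8% in PNX-dnFGFR.

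**Figure D2:**
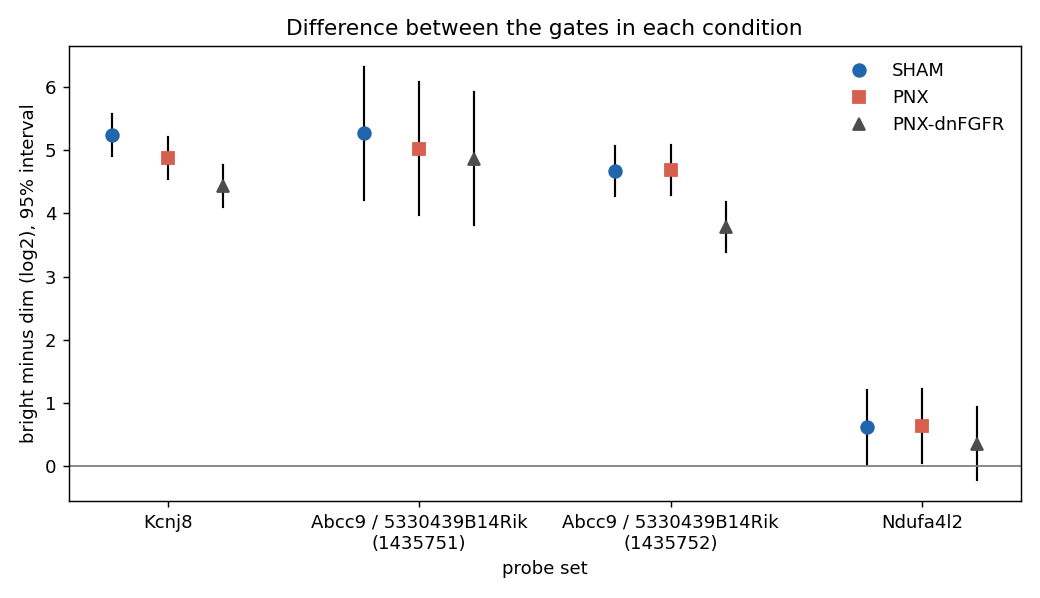
Bright minus dim difference (log2, y axis) of Kcnj8, both probe sets shared by Abcc9 and 5330439B14Rik, and Ndufa4l2 (x axis) in each condition, with points for the estimate and lines for the 95% interval of the limma fit. Kcnj8 and the shared probe sets lie between 3.79 and 5.27, and Ndufa4l2 lies between 0.36 and 0.63.

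Within bright cells, Kcnj8 and both shared probe sets were lowest in PNX-dnFGFR, and only the second shared probe set passed the test. It fell by 1.08 ± 0.18 against SHAM (SE; 95% interval -1.48 to -0.69; adjusted p = 0.0155), where 5.02% of probe sets passed. Without bright PNX-dnFGFR replicate 2 the change was -0.91 (adjusted p = 0.096). When bright SHAM replicate 1 or 2 was left out, which leaves 1 SHAM array, the change stayed at -1.10 or -1.06 and the adjusted p was 0.0635 or 0.12. The first shared probe set differed by -1.21 ± 0.47 (adjusted p = 0.168), and in a fit on the groups compared alone its adjusted p was 0.0301. Kcnj8 differed by -0.44 ± 0.15 (adjusted p = 0.118, limma), and 5.2% of tested genes passed. In all 3 probe sets both PNX-dnFGFR arrays lay below both SHAM arrays, as they did in 28.3% of all tested probe sets.

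Against PNX, bright PNX-dnFGFR cells gave -0.40 ± 0.15 for Kcnj8 (adjusted p = 0.302), -0.96 ± 0.47 for the first shared probe set (adjusted p = 0.448) and -0.88 ± 0.18 for the second (adjusted p = 0.0964; limma). None passed. The PNX-dnFGFR arrays lay below the PNX arrays in all 3, as they did in 23.5% of all tested probe sets. Without bright PNX replicate 1 the second shared probe set gave -1.06, and leaving out each array in turn gave -1.06 to -0.70. PNX against SHAM in bright cells gave -0.04 ± 0.15 for Kcnj8, with a 95% interval of -0.37 to 0.30, and -0.25 and -0.20 for the shared probe sets. Each of these contrasts called 1 gene, or 0.00903%, and neither called a member. At an unadjusted p below 0.05, PNX against SHAM held 0 of the 2 tested members and 912 of all 11073 genes, and PNX-dnFGFR against PNX held 1, Kcnj8, and 1390 genes.

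Across the 6 bright arrays, Kcnj8 and the shared probe sets varied together, with Pearson r = 0.99 for the first and 0.92 for the second. The groups are part of that spread, and PNX replicate 1 was lower than replicate 2 in all 3 probe sets. In dim cells, where all 3 lay below the filter, r was -0.31 and -0.72. These are descriptions over 6 arrays each.

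**Figure D3:**
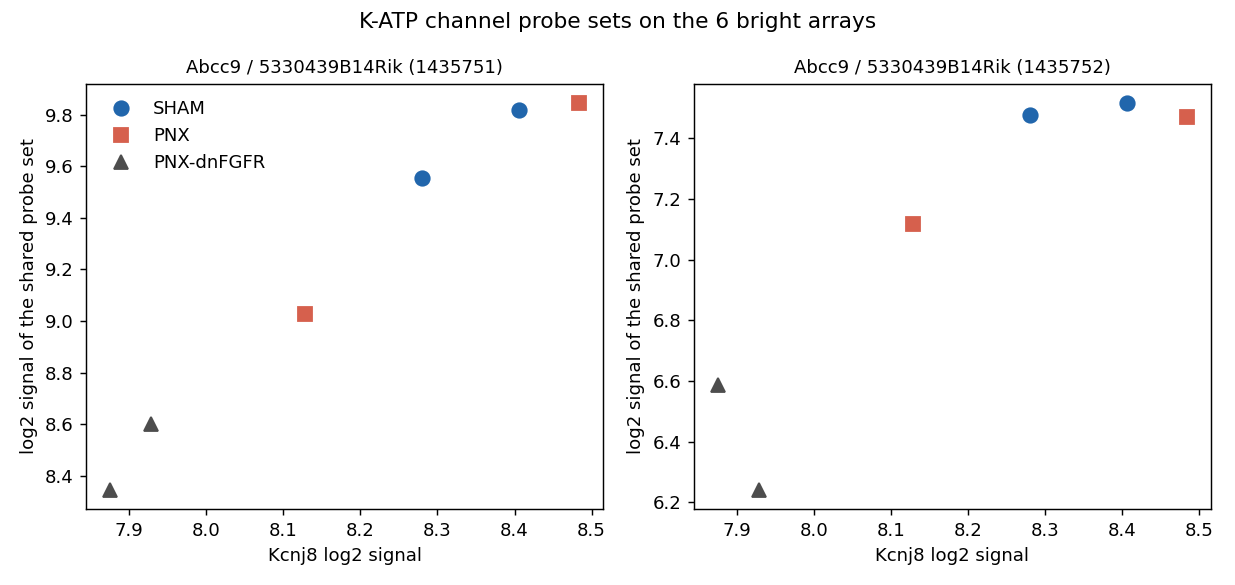
Log2 signal of each probe set shared by Abcc9 and 5330439B14Rik (y axes) against that of Kcnj8 (x axes) on the 6 bright arrays, with 1 point per array and symbols for the condition. Both PNX-dnFGFR arrays sit at the lower left in each panel, and the SHAM arrays and PNX replicate 2 sit at the upper right.

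Changes in Kcnj8 within dim cells were between signals below the filter. PNX differed from SHAM by 0.32 ± 0.15 (adjusted p = 0.425) and PNX-dnFGFR from SHAM by 0.36 ± 0.15 (adjusted p = 0.477, limma). No member passed in any dim contrast, and only Kcnj8 in PNX-dnFGFR against SHAM had an unadjusted p below 0.05, 1 of 1054 genes at that level. In these contrasts 0.0452% of genes passed for PNX against SHAM, 0.0181% for PNX-dnFGFR against SHAM and 0% for PNX-dnFGFR against PNX, where 863 genes had an unadjusted p below 0.05. Neither tested member passed with the gates averaged, nor had an unadjusted p below 0.05 there. In these averaged contrasts, 0.144% of genes passed for PNX against SHAM and 0% for PNX-dnFGFR against PNX. In the latter, 1384 genes had an unadjusted p below 0.05. There the shared probe sets gave -0.88 (unadjusted p = 0.0245, limma) and -0.43 (unadjusted p = 0.00682). Neither passed (adjusted p = 0.317 and 0.226), and 2312 of 18381 probe sets had an unadjusted p below 0.05.

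The test of whether a condition acted differently in the gates called no gene. For PNX against SHAM, bright minus dim, 0% passed and 495 genes had an unadjusted p below 0.05, and for PNX-dnFGFR against PNX 0% passed and 909 did. Kcnj8 gave -0.36 ± 0.21 and -0.44 ± 0.21 in these, and the second shared probe set gave 0.02 ± 0.25 and -0.90 ± 0.25 (adjusted p = 0.47 for the latter, limma). The first shared probe set gave -0.25 ± 0.66 and -0.16 ± 0.66 (adjusted p = 0.968 for the latter, limma). In dim cells, below the filter, PNX-dnFGFR against PNX gave -0.81 ± 0.47 for the first shared probe set and 0.02 ± 0.18 for the second. The smaller difference between gates in PNX-dnFGFR was thus not called against PNX. Whether it differed from that after SHAM was not tested.

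Ndufa4l2, a paralogue of the respiratory chain subunit NDUFA4 that is induced by hypoxia in many cells, was measured above the filter on all 12 arrays. In bright cells it was 5.91 and 6.01 after SHAM, 5.78 and 6.55 after PNX, and 6.19 and 5.84 in PNX-dnFGFR. In dim cells it was 5.47 and 5.21, 5.63 and 5.44, and 5.87 and 5.45 in the same order. Bright lay above dim on both arrays after SHAM and after PNX, and the arrays overlapped in PNX-dnFGFR. The share of all genes ordered so within a condition was not counted.

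Its mean difference between gates was 0.54 ± 0.15 (SE; 95% interval 0.20 to 0.87; adjusted p = 0.0152, limma), at a share of 47.8% of genes passing. It was 0.62 ± 0.26 after SHAM (adjusted p = 0.132), 0.63 ± 0.26 after PNX (adjusted p = 0.128) and 0.36 ± 0.26 under the dominant-negative receptor (adjusted p = 0.321), none past the threshold. Without bright PNX replicate 1 the PNX difference was 1.02, and leaving out each array in turn gave 0.25 to 1.02. Between conditions Ndufa4l2 differed by 0.20 ± 0.26 for PNX against SHAM in bright cells and by 0.19 ± 0.26 in dim cells, and no condition contrast passed.

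Rgs5, Mcam and Higd1b lay below the filter on all 12 arrays and were not tested. The probe set standing for Rgs5 gave 3.52 to 3.95 in bright and 3.56 to 3.75 in dim, and its 3 other probe sets were lower still on the array's scale, between 2.12 and 3.24. Mcam gave 3.82 to 4.80 in bright and 3.72 to 4.13 in dim, its highest value being bright PNX-dnFGFR replicate 1, whose partner gave 3.90. Higd1b gave 3.56 to 4.09 in bright and 3.63 to 4.42 in dim. The gates overlapped for each of the 3. Signals at this height do not show whether a transcript was absent.

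The other genes of the channel family did not follow Kcnj8. Kcnj11 and Abcc8, the pore and regulatory subunits of the pancreatic and neuronal form of the channel, gave -0.29 ± 0.10 (adjusted p = 0.0331) and -0.23 ± 0.10 (adjusted p = 0.0894) between gates, so that of the 3 tested channel genes 1 was higher and 1 lower in bright. Of 12 tested relatives of the members, 3 were higher and 5 lower in bright, with a median of 0.07. Among all 11073 tested genes 47.8% passed between the gates, 3152 higher and 2141 lower. Ndufa4, the respiratory chain paralogue of Ndufa4l2, was higher by 0.37 ± 0.10 (adjusted p = 0.0143), and Higd1a, the widely expressed paralogue of Higd1b, was lower by 0.32 on the log2 scale (-0.32 ± 0.07, adjusted p = 0.00513). Abcc1, a drug and glutathione conjugate exporter, rose by 0.88, and Abcc4, an exporter of cyclic nucleotides, fell by 1.34.

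Of 4 tested regulators of the Rgs R4 family, to which Rgs5 belongs, 2 were higher and 2 lower in bright, where 47.8% of all tested genes passed. Rgs16 was higher by 2.59 ± 0.16 (adjusted p = 1.9e-06) and Rgs4 by 0.95 ± 0.19, while Rgs2 fell by 1.49 and Rgs3 fell by 0.40. The 5 others, Rgs5 among them, lay below the filter.

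The other genes used for pericytes and mural cells were split between the gates. Of 18 listed, 16 had a probe set and 11 were tested, of which 4 were higher and 5 lower in bright, with a median of -0.28 against 0.05 over all genes. Over all 11073 tested genes 47.8% passed, 3152 higher and 2141 lower. Pdgfrb, the receptor for PDGF-B, gave 8.88 to 9.30 in bright and 5.51 to 6.35 in dim, a difference of 3.23 ± 0.14 (adjusted p = 2.9e-07). The laminin chain gene Lamc3 was higher by 2.70 ± 0.10, the transcription factor gene Ebf1 by 2.90 ± 0.15 and Anpep, an aminopeptidase, by 2.88 ± 0.31.

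In the other direction, Gucy1b1 and Gucy1a1, the subunits of the nitric oxide receptor guanylate cyclase, were lower in bright, at -2.81 ± 0.18 and -1.47 ± 0.27. So were Enpep, the aminopeptidase A of the renin-angiotensin system, at -2.17 ± 0.11, Des (desmin) at -0.66 ± 0.20, and Cox4i2, a lung isoform of a cytochrome oxidase subunit, at -0.32 ± 0.09. Notch3, the Notch receptor of mural cells, gave 0.40 ± 0.16 (adjusted p = 0.0728) and Heyl, a Notch target, gave -0.28 ± 0.26 (adjusted p = 0.382). Trpc6, Vtn, Art3, Atp13a5 and Tbx18 lay below the filter on all 12 arrays and were not tested.

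**Figure D4:**
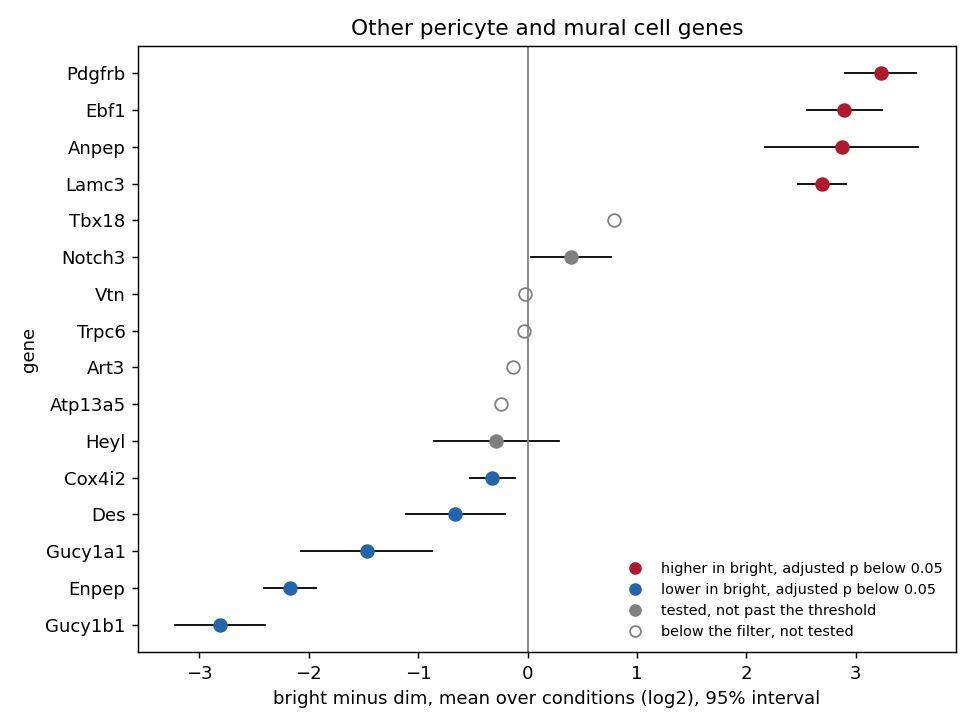
Bright minus dim difference averaged over conditions (log2, x axis) for 16 other pericyte and mural cell genes (y axis), with lines for the 95% interval of the limma fit and open points for genes below the filter. Pdgfrb, Ebf1, Anpep and Lamc3 lie between 2.70 and 3.23, and Gucy1b1 lies at -2.81.

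Genes of the signals exchanged by endothelium and pericytes were split evenly, with 5 of 16 tested higher and 5 lower in bright and a median of -0.02. The share of all tested genes passing between the gates was 47.8%. Tek, the receptor of the angiopoietins, was higher by 2.89 ± 0.19 and Jag1, a Notch ligand, by 2.85 ± 0.18. Angpt1, the ligand that activates TEK, fell by 1.73, and Notch1 fell by 1.12. Cdh2 (N-cadherin) was higher by 2.97 ± 0.53, with bright arrays spread from 3.80 to 8.75. In bright cells, PNX-dnFGFR against SHAM called Cdh2 higher, at 4.28 ± 0.92 (adjusted p = 0.0344), and Angpt2, an antagonist of TEK, lower, at -1.57 ± 0.27 (adjusted p = 0.0185). That contrast called 5.2% of all tested genes.

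Of 18 tested genes that respond to or sense hypoxia, 5 were higher and 7 lower in bright, with a median of 0.10, where 47.8% of all tested genes passed. Epas1, which encodes the hypoxia-inducible factor HIF-2 alpha, gave -1.88 ± 0.12, the glycolytic regulator Pfkfb3 gave -1.83 ± 0.14 and Vegfa, the endothelial growth factor, gave -1.64 ± 0.13, all lower in bright. Ddit4, an inhibitor of mTOR signalling, was higher by 1.34 ± 0.18. These values stand beside the small difference in Ndufa4l2.

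Markers of other cell types moved with the gates to different degrees, and 47.8% of all tested genes passed between the gates. Of 6 tested smooth muscle genes, 4 were higher and 1 lower in bright (median 0.81). In each single condition 2 were higher, and 1 was lower in PNX-dnFGFR only. Acta2 (smooth muscle actin) and Myh11, both among the higher genes, gave 2.15 ± 0.26 and 1.03 ± 0.13. Myocd, the defining coactivator, lay between 3.34 and 3.85, below the filter. The log2 of the summed smooth muscle signals ran from 9.49 to 10.58 in bright and from 8.63 to 9.10 in dim, so the gates did not overlap. The same sum over 11 adventitial fibroblast genes ran from 13.64 to 14.07 in bright and from 10.41 to 11.28 in dim. Over 11 alveolar fibroblast genes it ran from 12.40 to 13.37 in bright and from 14.63 to 14.77 in dim. The part of these lists in the differences of Kcnj8, the shared probe sets and Ndufa4l2 was not tested.

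The counts that follow also stand beside the 47.8% of all tested genes passing between the gates. Of 7 tested mesothelial genes 4 were higher in bright and none lower, with Nkain4 at 2.71 ± 0.23, and the sum ran from 10.52 to 11.83 in bright and from 8.53 to 11.05 in dim. Of 3 tested glial genes 2, Ngfr (1.50 ± 0.21) and Gpr17 (0.48 ± 0.16), were higher and none lower. Sox10, at 4.46 to 5.36, exceeded the filter on too few arrays and is not among those tested. The glial sums were 7.74 to 8.26 in bright and 7.42 to 7.59 in dim. Of 13 tested endothelial genes 2, Plvap and Tek (the latter also counted among the exchanged signals), were higher and 4 lower, and the summed signal overlapped between the gates, at 11.01 to 11.33 in bright and 11.09 to 11.58 in dim. Epithelial genes (1 of 10 tested lower, none higher) and immune genes (4 of 9 lower, none higher) overlapped as well, at 12.13 to 13.40 and 12.52 to 13.59 for the former and 10.34 to 11.01 and 10.50 to 11.72 for the latter. Sftpc, the surfactant gene of alveolar type II cells, gave 11.36 to 12.43 over the 12 arrays and Lyz2 of myeloid cells gave 9.77 to 11.31, above the filter on every array.

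In bright PNX-dnFGFR cells against SHAM, where the second shared probe set fell, 6 of 11 alveolar fibroblast genes were lower and none higher (median -0.96), and 1 of 11 adventitial genes, Scara5, was lower (median -0.44). Over all 11073 tested genes 5.2% passed in this contrast, 288 higher and 288 lower, with a median of 0.02. Of 11 tested genes of the other pericyte list 1, Cox4i2, was lower (-0.71 ± 0.16). Of 4 tested Rgs R4 genes 2 were higher and 1 lower, and of 12 tested relatives of the members 2 were lower, Cox4i2 among them. Of 18 tested hypoxia genes 1 was higher and 1 lower. No listed smooth muscle, endothelial, epithelial, immune, mesothelial or glial gene passed there by limma. The part of these lists in that change was not tested.

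The genes whose profile over the 12 arrays was most like that of Kcnj8 were Cd248 (r = 0.996), which encodes endosialin, a surface protein of fibroblasts and pericytes, Smoc2 (r = 0.995) and Lum (r = 0.994), which encode matrix proteins. Their own differences between gates were 4.79, 4.31 and 5.77, and the correlation largely follows the split between gates. With each gate centred on its mean, the nearest were Far1 (r = 0.928), Tsfm (r = 0.924) and Mfap4 (r = 0.921). Ndufa4l2 was most like Htra2 (r = 0.936), Magi1 (r = 0.932) and Loxl4 (r = 0.925), and, centred by gate, Pofut2 (r = 0.883), Magi1 (r = 0.876) and Dnmt3l (r = 0.872). The first shared probe set was most like Lynx1, Gdf10 and Irak1bp1 (r = 0.989 to 0.987) and the second like Igfbp5, Smoc2 and Adamtsl3 (r = 0.994 to 0.993). These are descriptions over 12 arrays chosen as the highest among all tested genes.

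Within 300 kb of Kcnj8 and Abcc9, 5 other genes were tested. Ldhb, a lactate dehydrogenase subunit gene, was higher in bright by 2.31 ± 0.33 (adjusted p = 3.5e-04) and Cmas, which activates sialic acid, by 0.43 ± 0.12 (adjusted p = 0.0166). Pyroxd1 (-0.21 ± 0.10), Recql (-0.29 ± 0.13) and Golt1b (0.15 ± 0.13) did not pass, and Spx, Gys2 and St8sia1 were below the filter. With values held at the filter, Kcnj8 and the first shared probe set gave 3.08 and 4.10, above the 2.31 of Ldhb, and the second shared probe set gave 1.97, below it.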

How the data were processed

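Values were the deposited log2 signals of 12 Affymetrix arrays, summarised by the authors with RMA per the submitters' processing notes; the sources used here give neither its version nor scan dates. Before hybridisation cDNA was amplified for 25 cycles, per the labels' protocols, which can compress or widen differences between small samples. Of 45141 probe sets, 104 were controls, 28898 were annotated to 1 gene, 551 to several and 15588 to none; 28689 of those with 1 gene matched RefSeq by Entrez identifier, and coordinates are those of GRCm38.p6. The probe set of highest mean stood for each gene, and genes whose signal exceeded the overall median (5.10) on 2 or more arrays were tested. One limma fit (version 3.58.1, R 4.3.3) over the 6 groups gave 14 contrasts with 6 residual and 3.31 prior degrees of freedom and Benjamini-Hochberg adjustment over all genes. Precision is limited by how few arrays there are.

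The members, the gene lists and the contrasts were chosen with earlier results of these data known. Named genes were all members, up to 4 genes per list with the smallest adjusted p between gates, the highest markers of other cell types, relatives of the members and the 3 genes most like each tested member; further genes of the lists were named after their values were seen. The fit was tested on simulated data. Alternatives were other filters, a second quantile normalization, averaged probe sets, a variance trend, fewer groups, replicate blocks, values held at the filter and each array left out. The fit over probe sets was added after the data were seen.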

Additional observations from a re-analysis of the deposited data

How the results depend on the processing

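With 2 arrays per group and signals near background for 3 members, precision is limited by the number of arrays and by signal over background. The count of members called between gates, averaged over conditions, was 2, and it was 1 under the stricter filter of 6.76, where Ndufa4l2 was no longer tested. The count after PNX was 1, and leaving out each array in turn gave 1 to 2. No other count of members called changed, under any alternative run, and no called difference changed direction. Over all alternatives and contrasts, 1873 of 2037 values of single members and shared probe sets kept their direction and side of the threshold, 5 gained a call and 4 lost one. Of the uncalled values, 104 changed direction and 51 became 0.

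Replicate numbers were shared by the groups, and no label says that they pair the samples. Replicate deviations of bright and dim arrays of one condition correlated at 0.00546 for SHAM, 0.00342 for PNX and 0.128 for PNX-dnFGFR, and over all 15 pairs of groups from -0.185 to 0.347, the highest being bright SHAM with bright PNX-dnFGFR, so that not every pair exceeded 0.1. With a replicate block the counts were unchanged, at 2 for the mean and 1 in each condition, and the adjusted p was 2.4e-08 for Kcnj8 and 0.0215 for Ndufa4l2. For the second shared probe set in bright PNX-dnFGFR against SHAM it was 0.0187. With a block within each condition they were 2.6e-06 and 0.0214.

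Leaving out arrays gave 4.79 to 4.91 for the mean difference of Kcnj8 and 0.41 to 0.67 for that of Ndufa4l2, whose adjusted p ran from 0.00256 to 0.0455. For the fall of the second probe set shared by Abcc9 in bright PNX-dnFGFR against SHAM, the adjusted p ran from 0.00786 to 0.12. Holding values at the filter set every dim array of both shared probe sets to the same value, which lowers the spread that the groups share. The bright changes stayed the same, at -1.21 for the first probe set against SHAM and -0.88 for the second against PNX. In that fit the first passed against SHAM (adjusted p = 0.0201, limma) and the second against PNX (adjusted p = 0.0426). These calls come with the lowered spread and add no support to the changes.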
